A study of Homo sapiens with 9 samples.

Results

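Rab GTPases are small membrane-bound switches that give each compartment of the secretory and endocytic pathways its identity. Genes were taken as Rab GTPases when their symbol was RAB followed by a number and, where present, a letter and a further number. This selected 56 of the 14943 genes in the count table, among them the pseudogene RAB28P5 and the retrogene RAB6C. The choice rested on the symbol alone, and human Rab genes that the table did not hold were not analysed here.

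The cells were SH-Sy5y, a human neuroblastoma line, transfected for 48 h with a cationic lipid reagent. Control cells (Ctrl.) were given 40 pmol of a negative control oligonucleotide. At 10 nM, 20 pmol of a miR-1229-3p mimic was mixed with 20 pmol of that oligonucleotide, and at 20 nM the whole 40 pmol was mimic. The total amount of small RNA was therefore equal in all 3 groups, and the comparison of 20 nM with Ctrl. sets mimic without control oligonucleotide against control oligonucleotide without mimic. Each group had 3 libraries of polyadenylated RNA, made where possible from a pair of pooled wells, so p-values measure the spread between these libraries, which may be partly technical. A single cell line was used, and all groups, Ctrl. included, were transfected.

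A Rab in its GTP-bound state sits on a membrane and recruits effectors, the tethers, motors and lipid enzymes that move, dock and fuse vesicles. Guanine nucleotide exchange factors (GEFs) load GTP, TBC-domain proteins stimulate its hydrolysis, and escort proteins and GDP dissociation inhibitors carry the prenylated Rab between membrane and cytosol. In neurons and neuroendocrine cells this cycle drives, among other steps, the release of synaptic and dense-core vesicles, the recycling of receptors and the delivery of endosomes to lysosomes. A microRNA acts on a different level: its seed, bases 2 to 8 from the 5′ end, pairs with complementary stretches in 3′ untranslated regions (UTRs) and can lower the messenger RNA that carries them.

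The sequences below are shown because 3 Rab mRNAs carried an 8-mer match to this seed and their changes did not share a direction. Capitals mark the seed in the microRNA (RefSeq, GRCh38.p14, chr5:179798278-179798300, minus strand) and the matching bases in the UTRs, which are read 5′ to 3′ on the strand of the transcript (GENCODE 44, GRCh38.p14). An 8-mer match pairs with bases 2 to 8 and has an A opposite base 1, and a 7-mer has all but the first or the last of these 8 bases. RAB18 is added as the member with 7-mers that passed the test.
miR-1229-3p: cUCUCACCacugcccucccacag
RAB5B, chr12:55992825-55992854, plus strand: tcctaggtagaGGTGAGAAtggggaggcaa
RAB3B, chr1:51911634-51911663, minus strand: cagagacataaGGTGAGAAagagtgtggtc
RAB3B, chr1:51911228-51911257, minus strand: ggatttctcaaGGTGAGAAgcagttctcca
RAB40B, chr17:82655645-82655674, minus strand: gccacaggtggGGTGAGAAcgacagggccg
RAB18, chr10:27540676-27540705, plus strand: tcactttttatGTGAGAAtagaaattatgg
RAB18, chr10:27542110-27542139, plus strand: ggcagtaccagGGTGAGAgggagtctattg

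Library totals ran from 17423969 to 28192775 estimated counts. The library of 20 nM replicate 3 stood apart: its score on the first principal component of all genes was 47.4, against -17.1 to 7.72 in the other 8, and its values for 34 of the 56 Rabs fell outside the range of the other 8 libraries (18 above, 16 below). Markers of noradrenergic neuroblastoma cells were present, with 9 of 9 in the table and a summed level of 5342 to 5566 CPM (counts scaled to a common library size) in Ctrl., while 7 of 8 mesenchymal markers summed to 1119 to 1196 CPM. At 20 nM the noradrenergic sum was 5498 to 6363 CPM and the mesenchymal sum 897 to 1136 CPM, and 20 nM replicate 3 held the extreme value of both. Individually, ISL1 and TH fell at 20 nM and CD44 rose, in log2 fold changes of -0.27, -2.02 and 1.31 (adjusted p = 0.00717, 0.0462 and 0.00293, edgeR). ISL1 was lost without 20 nM replicate 2 (adjusted p = 0.0512), and TH, under 1 CPM in all libraries, was lost without any 1 of the Ctrl. libraries, 10 nM replicate 2 or 20 nM replicate 1 or 2 (adjusted p = 0.0523 to 0.109). The part of these shifts in the Rab results was not tested.

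In control cells the Rab mRNAs together made up 0.25% of all counts, and their levels per length differed by more than 2 orders of magnitude. RAB7A, which directs late endosomes to lysosomes, had the highest level, 110.8 CPM per kb of its principal transcript (108 to 113 over the 3 libraries). RAB1B, which acts between endoplasmic reticulum (ER) and Golgi, followed with 83.2 (82.7 to 84.2), RAB5C of early endosomes with 83 (79.9 to 86) and RAB11B of recycling endosomes with 81.5 (79.1 to 85.4). The ranges of these 3 overlapped, so they had no order among themselves. RAB13, linked to junctional and surface delivery, came next with 61.2 (58.9 to 63.1). These 5 made up 43.2% of the summed level per length of all 56. Of the 31-base stretches in the RAB13 and RAB5C transcripts, 57.6% and 46% also occur in other genes, overlapping genes on the same strand included, so the levels of both depend on how shared reads were divided. The median over all genes was 8.2 CPM per kb, and 29 Rab genes lay above it. At the low end, RAB37, RAB6C, RAB27B and RAB3B, of which RAB37, RAB27B and RAB3B are grouped here under exocytosis and regulated secretion, had 0.171, 0.276, 0.357 and 0.665 CPM per kb.

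**Figure D1:**
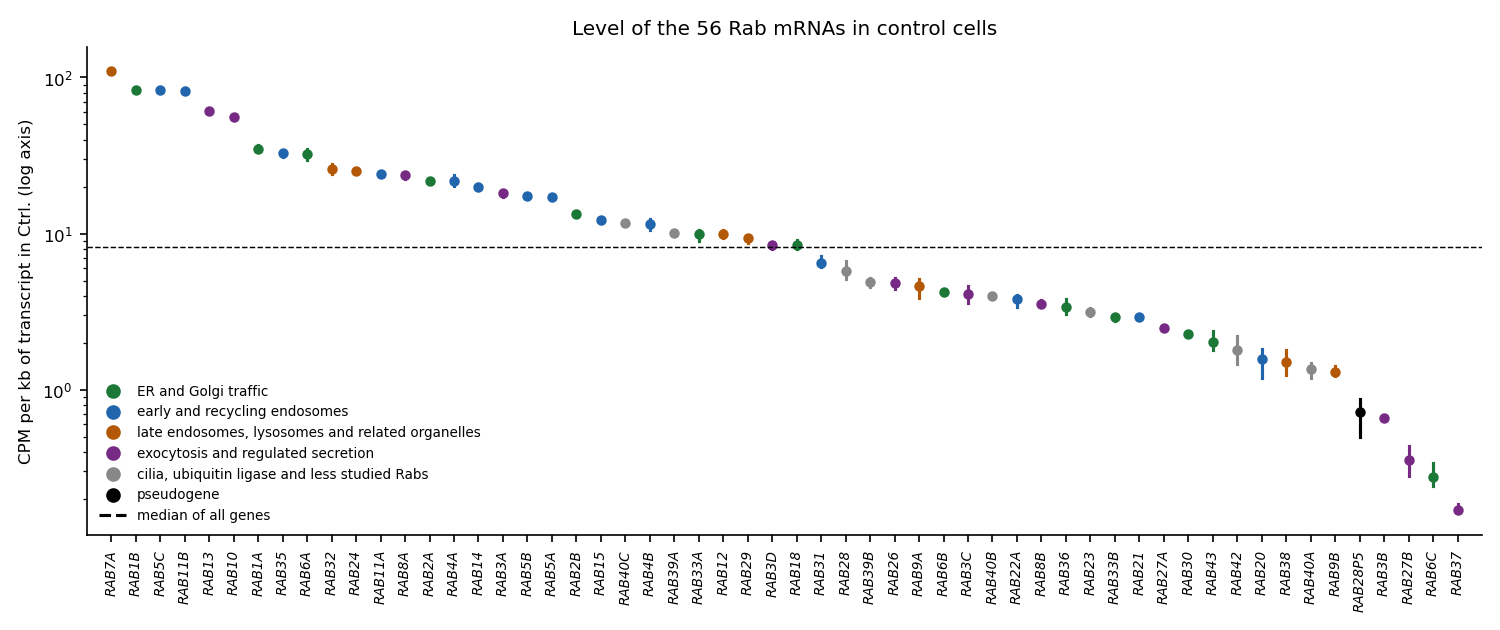
Levels of the 56 Rab mRNAs in Ctrl. in CPM per kb of the principal transcript on a log axis, in falling order, with points for the mean, lines for the lowest and highest of 3 libraries, and colours for the role. RAB7A leads at 110.8 CPM per kb and RAB37 closes at 0.171, and the dashed line marks the median of all genes, 8.2.

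The first question was which Rab mRNAs changed with the mimic, and at which amount. At 10 nM, 0 of 56 passed an adjusted p of 0.05 by edgeR's quasi-likelihood test, where 0.649% of all genes did (0.221% higher and 0.428% lower). DESeq2 called 0 as well, 5 Rabs had an unadjusted p under 0.05, and RAB18 alone passed in a fit of 8 libraries without 20 nM replicate 3 that estimated its covariates anew. At 20 nM, 6 Rabs rose (RAB1A, RAB18, RAB22A, RAB3B, RAB8B and RAB40B) and 1 fell (RAB5B). These 7 are 12.5% of the Rabs, where 13.9% of all genes were called (7.8% higher and 6.08% lower), so the share of Rabs that changed was close to the background. With the concentration as a number (dose trend, fold changes per 20 nM), the same 7 were called and RAB10 was lower in addition, 14.3% of the Rabs against 17.5% of all genes (9.84% higher and 7.69% lower). Between 20 nM and 10 nM, RAB1A, RAB22A and RAB8B were higher and 0 lower, against 2.79% of all genes called (1.91% higher and 0.883% lower). In this bulk RNA, less RNA per cell and fewer cells of a kind cannot be told apart.

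Changes were small. The largest among the called Rabs was a log2 fold change of 0.59, and the median over all 56 was 0.06 at 20 nM, against 0 for all genes tested. The Rab median was 0.07 at 10 nM and -0.01 between 20 nM and 10 nM, so it did not grow with the amount of mimic. The summed level of the 56 was 2461 to 2526 CPM in Ctrl., 2520 to 2580 CPM at 10 nM and 2512 to 2674 CPM at 20 nM. For the 49 Rabs that did not pass at 20 nM, the fitted change ran from -0.80 (RAB6C) to 0.68 (RAB37), both under 1 CPM in the mean of Ctrl., and in 24 of them it was within 0.1 on the log2 scale of 0. The median standard error of a Rab at 20 nM was 0.0809, so changes of that order were not detectable with these libraries. Some larger fitted changes did not pass either, among them RAB31 at 0.27 (SE 0.0937, adjusted p = 0.0795, edgeR) and RAB11B at -0.18 (SE 0.0628, adjusted p = 0.079). RAB1A, with a smaller SE of 0.0479, passed at 0.22. Counting ranges alone, 12 Rabs had all 3 libraries at 10 nM above all 3 of Ctrl. where 10.1% of all genes did, and 1, RAB39A, had them below where 9.9% did. At 20 nM, 11 lay above (15.2% of all genes) and 4 below (13.7% of all genes), the latter being RAB5B, RAB10, RAB33B and RAB2B. All 6 mimic libraries lay above all 3 controls for 4 Rabs (RAB18, RAB33A, RAB3B and RAB40B), which 6.1% of all genes did, and below them for 0, which 5.79% did. RAB33A, RAB39A, RAB33B and RAB2B are named after their values were seen, and none of these 4 passed at the adjusted threshold in the comparisons above.

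**Figure D2:**
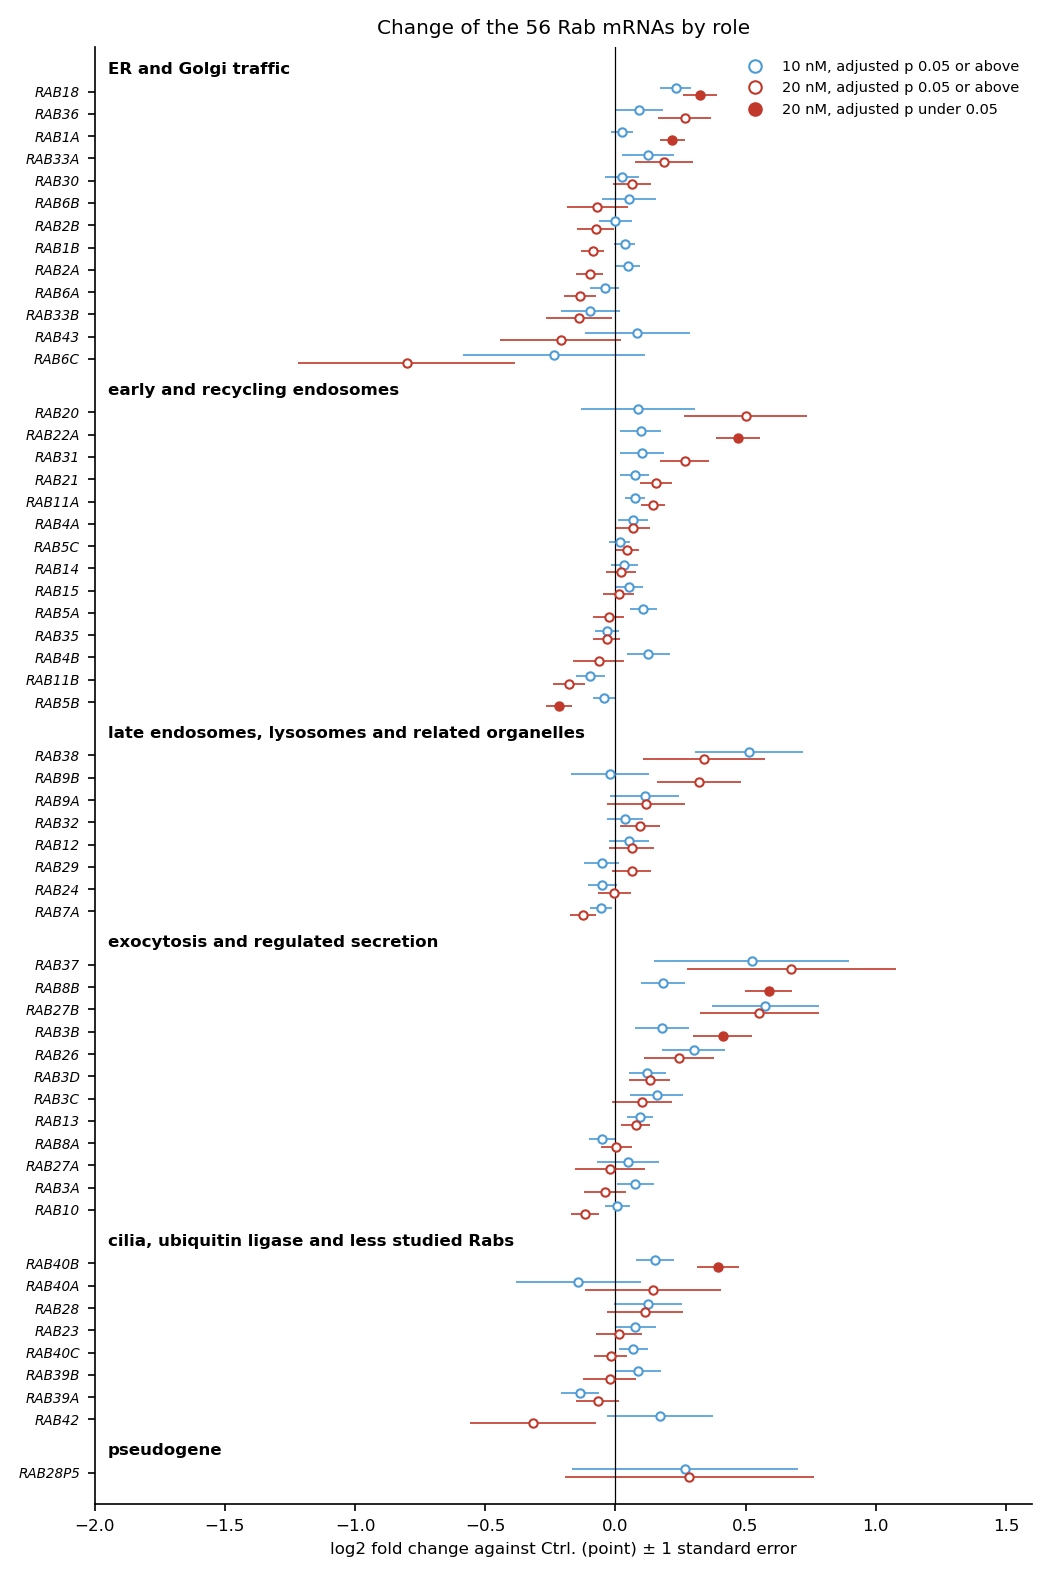
Log2 fold change against Ctrl. of the 56 Rab mRNAs, grouped by role, at 10 nM (blue) and 20 nM (red), with bars of 1 standard error and filled points for an adjusted p under 0.05. No point at 10 nM is filled, and the 7 filled points at 20 nM are spread over 4 of the 5 roles.

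The genes of the 8 Rabs described in full are, on GRCh38.p14, RAB1A at chr2:65070696-65130331 (minus strand), RAB18 at chr10:27504174-27543207 (plus), RAB5B at chr12:55973913-55996683 (plus), RAB22A at chr20:58309715-58367507 (plus), RAB3B at chr1:51907956-51990700 (minus), RAB8B at chr15:63189560-63267776 (plus), RAB10 at chr2:26034084-26137454 (plus) and RAB40B at chr17:82654973-82698698 (minus). Each value sums all exons of the gene, and at most 9.61% of the 31-base stretches of these 8 transcripts occur in another gene.

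Among 13 Rabs of ER and Golgi traffic, RAB1A and RAB18 rose at 20 nM, 0 fell, and the median log2 fold change was -0.08. RAB1A, which controls the step from ER to Golgi, had 82.9, 84.4 and 90.2 CPM in Ctrl., 87.9, 87.4 and 89.6 CPM at 10 nM, and 100.2, 101 and 111 CPM at 20 nM. The 20 nM libraries lay above all others, whereas 10 nM and Ctrl. overlapped. Its log2 fold change was 0.22 (SE 0.0479, adjusted p = 0.00987, edgeR) against Ctrl. and 0.19 (SE 0.0456, adjusted p = 0.0424) against 10 nM. Without 20 nM replicate 2 the first missed the threshold narrowly (adjusted p = 0.0513), and the second was lost without any 1 of 5 mimic libraries or of Ctrl. replicates 1 and 2 (adjusted p = 0.055 to 0.187).

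RAB18, which acts at the ER and at lipid droplets, had 38.7, 44.2 and 40.8 CPM in Ctrl., 47.2, 49.6 and 47.5 CPM at 10 nM, and 52.9, 49.9 and 49.4 CPM at 20 nM. All 6 mimic libraries lay above the 3 controls, and 10 nM and 20 nM overlapped. On the log2 scale it changed by 0.23 at 10 nM (SE 0.059, adjusted p = 0.106) and by 0.33 at 20 nM (SE 0.0658, adjusted p = 0.00614), and the difference between both amounts was 0.09 (SE 0.0624, adjusted p = 0.547). RAB18 had the smallest adjusted p of all Rabs at 10 nM. Without 20 nM replicate 1 its call at 20 nM was lost (adjusted p = 0.0545).

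Of the 14 Rabs of early and recycling endosomes, RAB22A rose and RAB5B fell at 20 nM, with a median log2 fold change of 0.03. RAB5B, one of 3 RAB5 genes that govern the fusion of early endosomes, had 89.5, 94 and 91.6 CPM in Ctrl., 87.9, 90.4 and 84.5 CPM at 10 nM, and 79.2, 77 and 66.9 CPM at 20 nM. The 20 nM libraries lay below the other 6, and each mimic library was below the control of its number. The fit gave -0.22 on the log2 scale at 20 nM (SE 0.0496, adjusted p = 0.012) and -0.26 per 20 nM in the dose trend (SE 0.0444, adjusted p = 0.00121). Its value at 20 nM was -0.23 (adjusted p = 0.00464) without replicate 3, the lowest library, and the call was lost without replicate 2 (adjusted p = 0.0547).

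RAB22A, which sorts cargo from early endosomes into recycling tubules, had 35.2, 29.5 and 35 CPM in Ctrl., 34.2, 35.8 and 34.7 CPM at 10 nM, and 49.3, 41.7 and 35.9 CPM at 20 nM. The 20 nM libraries were spread widely and the lowest of them nearly touched the highest of the others. The fitted log2 fold change was 0.47 at 20 nM (SE 0.086, adjusted p = 0.00336) and 0.37 against 10 nM (SE 0.0824, adjusted p = 0.0303). With the replicate number as a block the value at 20 nM was 0.34 (adjusted p = 0.0603), and without 20 nM replicate 1, the highest library, the call was lost (adjusted p = 0.087), as was the dose trend (adjusted p = 0.104). Both calls were also lost with no covariate estimated from the data (adjusted p = 0.0899 and 0.0715), as was the difference from 10 nM (adjusted p = 0.452). The difference from 10 nM was lost without any 1 of the 10 nM libraries or of 20 nM replicates 1 and 2 (adjusted p = 0.0524 to 0.388). In the same group, RAB11A, named after its values were seen, and RAB11B missed the threshold at 20 nM (0.14, adjusted p = 0.0519, and -0.18, adjusted p = 0.079) and passed it without 20 nM replicate 3 (adjusted p = 0.0489 and 0.039).

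None of the 8 Rabs of late endosomes, lysosomes and related organelles passed in any comparison. RAB7A had 236, 247 and 243 CPM in Ctrl., 235, 249 and 236 CPM at 10 nM, and 225, 226 and 303 CPM at 20 nM, so that its highest and lowest libraries were both at 20 nM. Its log2 fold change at 20 nM was -0.12 (SE 0.0501, adjusted p = 0.128). RAB7A did pass at 20 nM with another number of covariates estimated from the data (-0.15, adjusted p = 0.0463). It also passed in the fit of 8 libraries without 20 nM replicate 3 that estimated its covariates anew (-0.11, adjusted p = 0.0134). RAB32, a Rab of melanosomes and other lysosome-related organelles, had 25.5 to 29.8 CPM in Ctrl. and 30.3, 30.3 and 40.4 CPM at 20 nM. It passed at 20 nM only in the fit with the replicate block, with 0.28 (adjusted p = 0.0403), against 0.09 (adjusted p = 0.461) without it. In the dose trend the block added RAB32 (0.28, adjusted p = 0.0282), RAB31 (0.22, adjusted p = 0.0405) and RAB33A (0.38, adjusted p = 0.045). These 3 were chosen after their values were seen.

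Of the 12 Rabs of exocytosis and regulated secretion, RAB3B and RAB8B rose at 20 nM and RAB10 fell in the dose trend. RAB8B, a Rab of delivery to the plasma membrane, had 16.5, 18.2 and 16.4 CPM in Ctrl., 18.5, 17.7 and 18.4 CPM at 10 nM, and 26.9, 22.5 and 14.2 CPM at 20 nM. Replicates 1 and 2 of 20 nM lay above every other library and replicate 3 below all of them. The fit, which includes 1 surrogate variable (a covariate estimated from the data), gave a log2 fold change of 0.59 (SE 0.0903, adjusted p = 0.00109), the largest of the called Rabs, and 0.54 (adjusted p = 0.00147) without that library. With the replicate block it was 0.29 (adjusted p = 0.251), and with no covariate the call was lost as well (adjusted p = 0.296). The dose trend of 0.49 (SE 0.0918, adjusted p = 0.00264) was lost with the block (adjusted p = 0.206), with no covariate (adjusted p = 0.252) and without 20 nM replicate 1 (adjusted p = 0.224). The difference from 10 nM, 0.41 (SE 0.0867, adjusted p = 0.0248), was lost without replicate 1 or 2 of either amount (adjusted p = 0.0782 to 0.406).

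RAB3B, one of 4 RAB3 genes that prime secretory vesicles for release, was among the lowest members per length and rose from 8.09, 8.65 and 8.75 CPM in Ctrl. through 8.92, 9.23 and 10.6 CPM at 10 nM to 11.3, 11.5 and 10.4 CPM at 20 nM. Every mimic library exceeded every control. The change at 20 nM amounted to 0.41 (SE 0.114, adjusted p = 0.0304), that of the dose trend to 0.40 (SE 0.108, adjusted p = 0.0209). Leaving out any 1 of the Ctrl. libraries or replicate 1 or 2 of 20 nM ended the call at 20 nM (adjusted p = 0.0512 to 0.145), and DESeq2 gave an adjusted p of 0.0715. That call was also lost with no surrogate variable (adjusted p = 0.0562, edgeR). Without 20 nM replicate 2 the dose trend was lost too (adjusted p = 0.0871).

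RAB10, which carries vesicles from the Golgi and recycling endosomes to the surface, had 189, 206 and 199 CPM in Ctrl., 193, 202 and 199 CPM at 10 nM, and 178, 189 and 168 CPM at 20 nM. Ctrl. and 10 nM overlapped throughout, and the highest 20 nM library lay just under the lowest control. The dose trend was -0.15 (SE 0.046, adjusted p = 0.0362), the comparison of 20 nM with Ctrl. -0.12 (SE 0.0546, adjusted p = 0.182). The call in the dose trend held in 7 of 18 alternative fits. It was lost with the replicate block (adjusted p = 0.0995) and with no surrogate variable (adjusted p = 0.162). It was also lost without any 1 of 6 libraries, namely Ctrl. replicates 2 and 3, 10 nM replicate 1 and the 3 of 20 nM (adjusted p = 0.0509 to 0.0823).

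Of the 8 remaining protein-coding Rabs, those of cilia, of ubiquitin ligases and those less studied, RAB40B rose and 0 fell. RAB40B joins a cullin ubiquitin ligase through its SOCS box. It had 15, 15.9 and 15 CPM in Ctrl., 16.7, 18 and 17.6 CPM at 10 nM, and 20.6, 20.1 and 25.6 CPM at 20 nM, so the 3 groups did not overlap and followed the amount of mimic. Its log2 difference from Ctrl. reached 0.15 at 10 nM (SE 0.0727, adjusted p = 0.372), 0.40 at 20 nM (SE 0.08, adjusted p = 0.00614) and 0.44 in the dose trend (SE 0.0771, adjusted p = 0.00156). The difference between both amounts was 0.24 (SE 0.0761) and did not pass (adjusted p = 0.125). RAB40B was the 1 Rab whose call at 20 nM held in 18 of 18 alternative fits, with adjusted p from 0.000493 to 0.031.

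**Figure D3:**
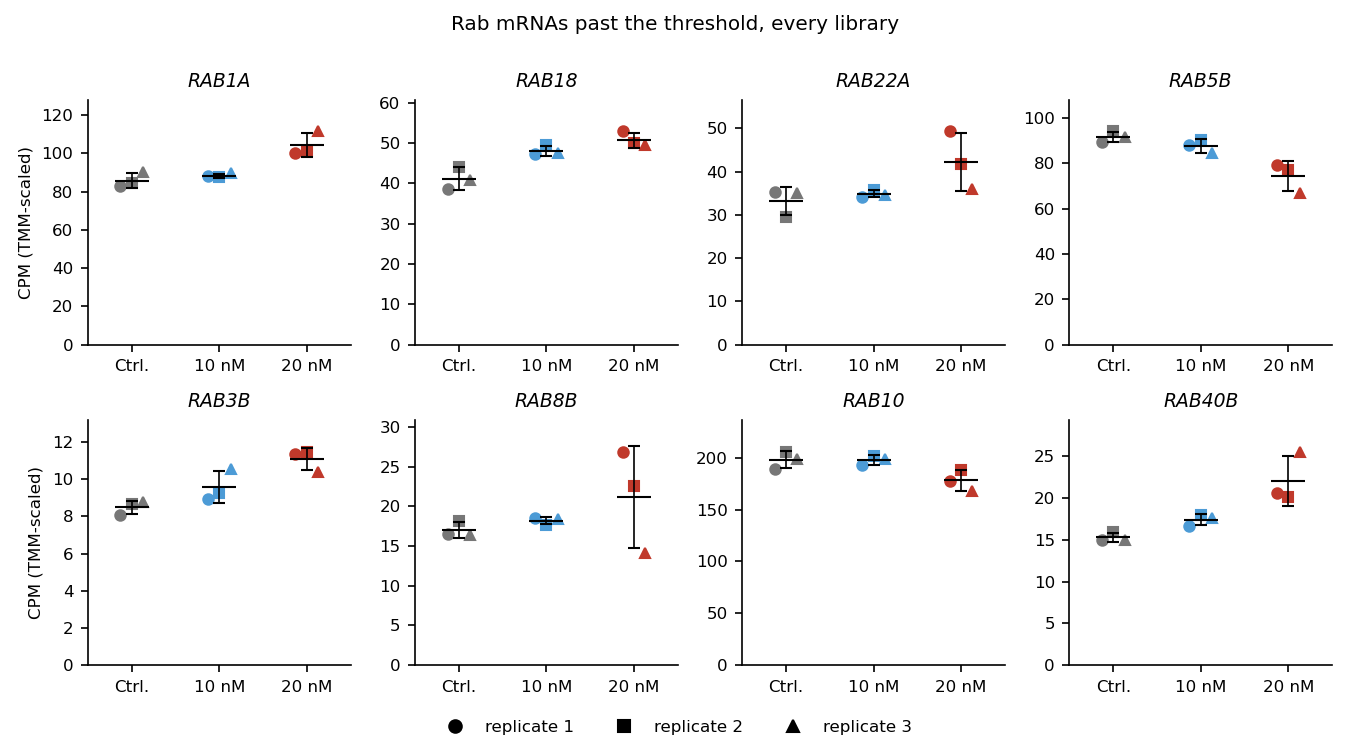
CPM (TMM-scaled) in every library of the 8 Rab mRNAs that passed in at least 1 comparison, with symbols for the replicate number, horizontal lines for the group mean and bars of 1 SD (n = 3). The 20 nM libraries of RAB1A and RAB40B lie above and those of RAB5B below all others, while RAB8B runs from 14.2 to 26.9 CPM at 20 nM.

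Several called Rabs have close paralogues with overlapping roles, and their shares of the family were compared per length of transcript. These families were picked for a called member, so their shares are descriptions. RAB5B made up 14.9%, 14.7% and 14.7% of the summed level of the 3 RAB5 genes in Ctrl., 14%, 14% and 13% at 10 nM, and 12.8%, 12.1% and 8.45% at 20 nM. RAB5C had 131, 141 and 136 CPM in Ctrl. and 140.1, 148 and 206 CPM at 20 nM (log2 fold change 0.05, adjusted p = 0.565), and RAB5A 43.1, 43.5 and 43.6 CPM and 43.2, 40.6 and 30.3 CPM (-0.03, adjusted p = 0.834). At 20 nM replicate 3 stood apart from replicates 1 and 2 in all 3 genes, while the lower share of RAB5B was present in each of the 6 mimic libraries.

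RAB40B supplied 23.7%, 23.7% and 23.2% of the RAB40 sum in Ctrl. and 29.4%, 27.8% and 28.6% at 20 nM, with no overlap. RAB40C, the main member, had 31.1 to 32.6 CPM in Ctrl. and 30.5, 33.5 and 43 CPM at 20 nM, and RAB40A stayed under 4 CPM. In the RAB3 family the share of RAB3B was small, 2.09% to 2.17% in Ctrl. and 2.54% to 2.83% at 20 nM. RAB3A, the brain-enriched isoform and the main member here, had 25.8 to 28.2 CPM in Ctrl. and 24.6 to 29 CPM at 20 nM, and RAB3C and RAB3D had adjusted p-values of 0.611 and 0.307. RAB1A was 28.7% to 30.8% of the RAB1 pair in Ctrl. and 34.2%, 34% and 30.8% at 20 nM, where RAB1B had 149.9, 153 and 195 CPM against 157 to 160.0 CPM in Ctrl. RAB8B was 12.2% to 14.5% of the RAB8 pair in Ctrl. and 18.8%, 16.7% and 12.2% at 20 nM, with RAB8A at 57.2 to 63.2 CPM in Ctrl. and 54.6 to 62 CPM at 20 nM.

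The purpose given for the experiment is the search for direct targets of this microRNA, so matches to the seed were counted in the longest annotated 3′ UTR of each gene. An 8-mer or 7-mer (GGTGAGAA, GGTGAGA or GTGAGAA, on the transcript strand, the 8-mer containing both 7-mers) was present in 11 of 55 Rabs with a UTR, 20% against 22.6% of all 13778 genes with one. An 8-mer was present in 3 Rabs, 5.45% against 4.61%. Of these 3, printed above, RAB5B fell, while RAB3B, with both 8-mers and a further 7-mer in a UTR of 11971 bases, and RAB40B rose. The site in RAB5B begins at base 624 of a UTR of 4471 bases and that in RAB40B at base 2200 of 2890.

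Of the 8 Rabs with 7-mers only, RAB18 rose and the other 7 did not pass in any comparison. RAB33B had 12.7, 13 and 11.7 CPM in Ctrl. and 11.1, 11 and 6.93 CPM at 20 nM (log2 fold change -0.14, adjusted p = 0.525). RAB31, a Rab of endosome to Golgi traffic, had 24.2, 28.2 and 24.1 CPM in Ctrl. and 29.4, 31.4 and 28.1 CPM at 20 nM, higher in each same-numbered pair (0.27, adjusted p = 0.0795). The dose trend was -0.11 for RAB43 and RAB6B, -0.09 for RAB39B, -0.08 for RAB2A and -0.01 for RAB30. Conversely, RAB1A, RAB8B, RAB22A and RAB10 changed without a 7-mer in the searched UTR. Over all genes, the median dose trend was -0.05 with an 8-mer, -0.03 with any of the 3 matches and 0.02 without. These groups also differed in UTR length, with medians of 3603, 3279 and 1209 bases. The part of UTR length in the dose trends was not tested. For the Rabs the median dose trend was 0.40 with an 8-mer (3 genes), -0.08 with any match (11 genes) and 0.04 without. The median log2 fold change of the 11 Rabs with a match was 0.08 at 10 nM and -0.02 at 20 nM. Of these 11, 3 were called higher and 1 lower at 20 nM. The match is a description of letters in the UTR, and binding was not measured in these files.

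**Figure D4:**
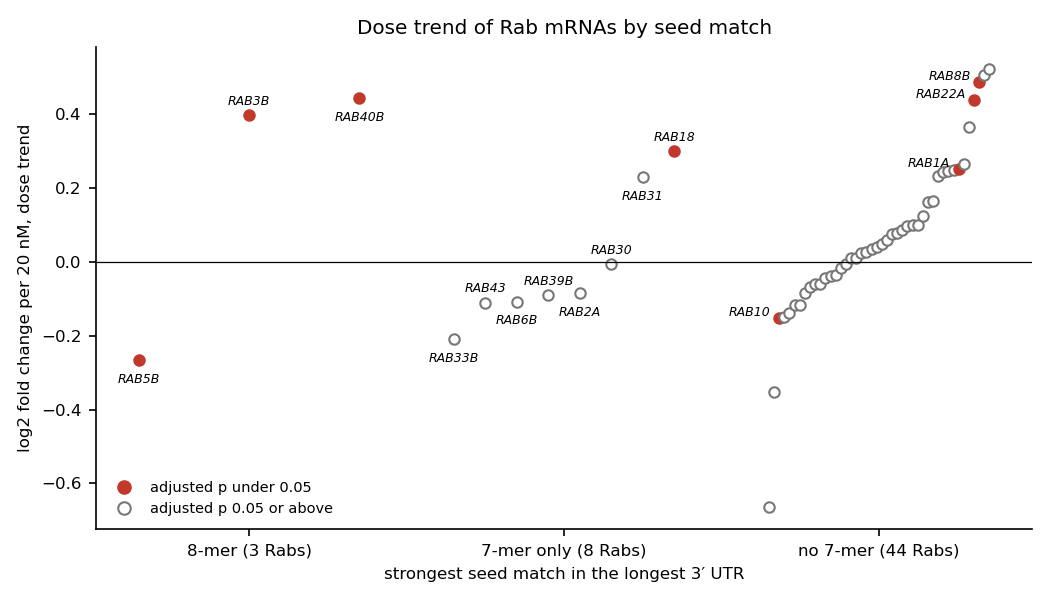
Dose trend (log2 fold change per 20 nM) of the 55 Rab mRNAs with an annotated 3′ UTR by their strongest match to the seed of miR-1229-3p, with filled points for an adjusted p under 0.05. The 3 Rabs with an 8-mer lie on both sides of 0, at -0.26 (RAB5B), 0.40 (RAB3B) and 0.44 (RAB40B).

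The genes that load, unload and read out the Rabs were counted in the same fits. At 10 nM, 0 passed in each of these lists. Of 53 Rab effectors, 9 were higher and 7 lower in the dose trend, 17% and 13.2% of the list where 9.84% and 7.69% of all genes were, with a median log2 fold change of 0.03. Whether this list or those that follow differ from all genes in the share called was not tested. OCRL, an inositol phosphatase recruited by several Rabs to endosomes and the Golgi, had 106, 106 and 104 CPM in Ctrl., 95.3, 93.5 and 91 CPM at 10 nM, and 79, 74.5 and 62.3 CPM at 20 nM, with no overlap between groups. Its dose trend was -0.48 (SE 0.0461, adjusted p = 2.44e-05). APPL1, a RAB5 effector on signalling endosomes, stepped up at the higher amount, with 61.9 to 63.9 CPM in Ctrl., 62.9 to 71.5 CPM at 10 nM and 85.1 to 96.9 CPM at 20 nM (dose trend 0.61, SE 0.0626, adjusted p = 3.71e-05). RAB11FIP1, an adaptor of RAB11 on recycling endosomes, had 18.2 to 18.6 CPM, 18.8 to 19.1 CPM and 29.5 to 32.3 CPM in the 3 groups (0.77, SE 0.102, adjusted p = 0.000217). MYRIP, which tethers RAB27 granules to myosin, had 17.1 to 23.1 CPM in Ctrl. and 22.6 to 34.3 CPM at 20 nM (0.64, SE 0.0968, adjusted p = 0.000563). None of these 4 had a 7-mer match.

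Of 37 GEFs, 9 were higher and 4 lower in the dose trend, 24.3% and 10.8% of the list against 9.84% and 7.69% of all genes, and the median was -0.02. DENND6A, a GEF of RAB14, had 29.2 to 34.8 CPM in Ctrl. and 43.1 to 48.3 CPM at 20 nM (0.56, adjusted p = 0.000477). GAPVD1, a GEF of RAB5, had 59.5 to 62.1 CPM in Ctrl. and 73 to 75.7 CPM at 20 nM (0.30, adjusted p = 0.00228). SMCR8, which works in a complex with C9orf72 and carries an 8-mer match, had 74 to 77.4 CPM in Ctrl., 68.4 to 68.7 CPM at 10 nM and 63.6 to 65.1 CPM at 20 nM (-0.23, adjusted p = 0.00329). The groups of SMCR8 did not overlap. C9orf72 itself had 34 to 35.3 CPM in Ctrl. and 43.6, 43 and 29.6 CPM at 20 nM (0.28, adjusted p = 0.00878), a call that the replicate block did not keep (adjusted p = 0.34). It was also lost without 20 nM replicate 1 or 2 (adjusted p = 0.353 and 0.0733).

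Of 41 TBC-domain and RAB3GAP genes, 4 were higher and 2 lower, 9.76% and 4.88% of the list, which is near or under the 9.84% and 7.69% of all genes. TBC1D14, a regulator of RAB11 membranes in autophagy, had 116 to 120.5 CPM in Ctrl., 125 to 136 CPM at 10 nM and 139.6 to 149.7 CPM at 20 nM (0.27, adjusted p = 0.000942), and TBC1D9 had a dose trend of 0.31 (adjusted p = 0.00311), TBC1D2B of -0.23 (adjusted p = 0.011) and TBC1D9B of 0.17 (adjusted p = 0.0235). The call of TBC1D9B was lost with the replicate block (adjusted p = 0.0524) and without Ctrl. replicate 3 or 20 nM replicate 2 (adjusted p = 0.0959 and 0.0711). Among 8 genes of prenylation, escort and extraction, RABAC1, a prenylated Rab acceptor, was higher in the dose trend (0.16, adjusted p = 0.0399) with 49 to 54.7 CPM in Ctrl. and 51.8, 57.3 and 95.7 CPM at 20 nM, the last in replicate 3. It did not pass at 20 nM (adjusted p = 0.733) and was lost from the dose trend with the block (adjusted p = 0.0623) and without any 1 of the Ctrl. libraries, 10 nM replicate 1 or 20 nM replicate 2 or 3, the last giving the highest value (adjusted p = 0.0521 to 0.461). Of 14 TRAPP genes, which form the GEF of RAB1, 0 passed in any comparison.

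For comparison with a related GTPase family, 24 ARF and SAR genes were counted, of which 4 were lower in the dose trend, 16.7% against 7.69% of all genes. ARL10, ARL16 and ARF3 fell, with dose trends of -0.25, -0.27 and -0.18, and the calls of ARL16 and ARF3 were lost with the replicate block (adjusted p = 0.313 and 0.688). Without 20 nM replicate 1 both were lost as well (adjusted p = 0.307 and 0.674), and ARF3 also without Ctrl. replicate 2 or 20 nM replicate 2 (adjusted p = 0.0515 and 0.0556).

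The library of 20 nM replicate 3 set the width of the 20 nM group for many Rabs. Relative to the mean of replicates 1 and 2, it was higher by 0.52 on the log2 scale for RAB5C, 0.42 for RAB7A and 0.37 for RAB1B, and lower by values down to -0.83 for RAB27B, with RAB8B at -0.80, RAB33B at -0.67, RAB5A at -0.47 and RAB14 at -0.44. Over the 53 Rabs of at least 1 CPM in Ctrl., the deviation and the length of the transcript had a Spearman's rho of -0.488, which describes a single library whose genes share its depth and preparation. The Rabs were no exception in this: the median absolute deviation was 0.258 for them and 0.24 for all genes, and 30.8% of all genes lay above and 28.9% below the range of the other 8 libraries. RAB43 deviated most, by 1.13, and 90.9% of its 31-base stretches also occur in other genes. Without that library, 10 Rabs were called at 20 nM in place of 7, the 7 and in addition RAB11A, RAB11B and RAB31.

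**Figure D5:**
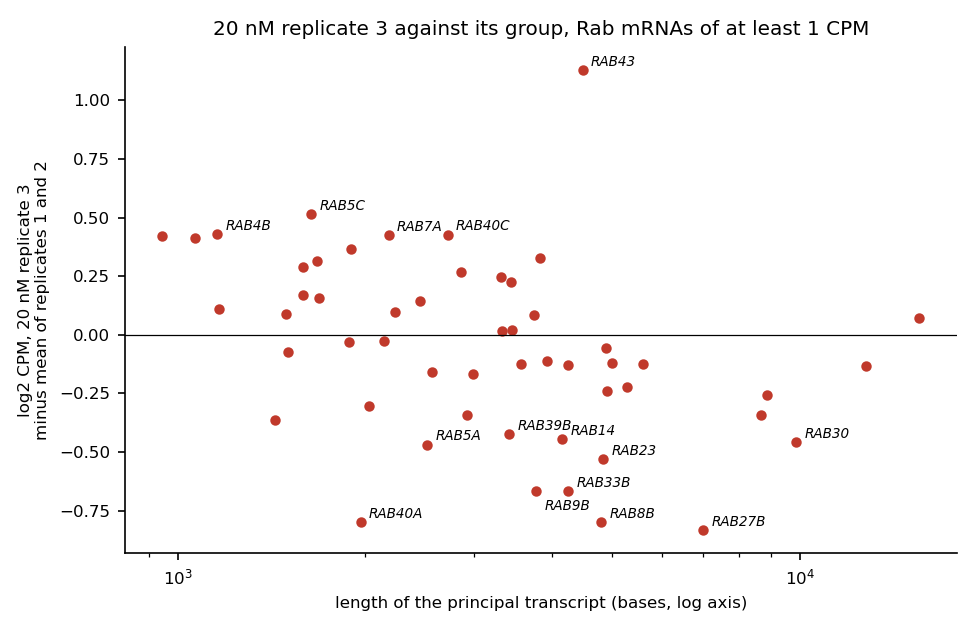
Deviation of 20 nM replicate 3 from the mean of replicates 1 and 2 (log2 CPM with a pseudocount of 0.1) against the length of the principal transcript on a log axis, for the 53 Rab mRNAs of at least 1 CPM in Ctrl. Each point is a gene, and short transcripts such as RAB5C lie mostly above 0 and long ones such as RAB27B mostly below.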

How the data were processed

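RNA-seq libraries of 9 transfected SH-Sy5y cultures, 3 per group, were analysed. Per the labels and the study's methods, the authors quantified reads with salmon on GRCh38.p13 (Ensembl 107), summed transcripts by symbol, filtered low genes and deposited estimated counts. Of these values 88.8% are not whole (tolerance 1e-06), and they were rounded. Whether counting used strand is not given in the sources used here. The authors' surrogate-corrected log2 expression table, and their 3 tables of comparisons (log fold changes, likelihood ratios, p-values and FDR), were not used.

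Counts were TMM-scaled and fitted with edgeR's quasi-likelihood test (version 4.0.16, R 4.3.3) over all 9 libraries and 14943 genes, with surrogate variables from sva 3.50.0 (1 by group, 2 in the dose trend, estimated from log2 CPM with a prior count of 2, seed 1). Calls need a Benjamini-Hochberg adjusted p under 0.05 over all genes, and SE is the absolute log2 fold change over the root of F. Members and gene lists were chosen with earlier results of these data known. Named are all Rabs that passed in any of 4 comparisons, those with seed matches, the 5 highest per length, paralogues of called Rabs, and per regulator list up to 4 with the smallest dose-trend adjusted p. 3′ UTRs of at least 50 bases came from GENCODE 44 (GRCh38.p14): identifiers placed 14105 genes, symbols a further 768, 70 stayed unplaced, and 13778 had a UTR.

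Replicate numbers come from the sample titles. Same-numbered samples deviated together between Ctrl. and 10 nM and between Ctrl. and 20 nM, with every correlation above 0.1 (0.107 to 0.185), and between 10 nM and 20 nM in all but 1 pair (0.0288 at the lowest), so blocked values stand beside the first 2 kinds of comparison and the dose trend where they change a call. Alternatives were other scalings, DESeq2 1.42.0, other surrogate variables, the replicate block, a level filter, fits of 2 groups and leaving out each library. The fitting procedure was tested on simulated data. Results of some genes in the lists are not reported here.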

Additional observations from a re-analysis of the deposited data

How the results depend on the processing

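The number of Rabs called at 20 nM was 7, and 4 with no surrogate variables, 6 with the replicate block and 4 to 10 when 1 library was left out (4 without 20 nM replicate 1, 4 without replicate 2, 10 without replicate 3). In the dose trend it was 8, and 5 with no surrogate variables, 9 with the block, 6 to 13 when 1 library was left out (13 without 20 nM replicate 1) and 0 with the mimic coded as present or absent. Between 20 nM and 10 nM it was 3, and 0 with no surrogate variables, 0 with the block and 0 to 3 when 1 library was left out (0 without 10 nM replicate 1 or 2 or 20 nM replicate 1 or 2, and 1 without 10 nM replicate 3). At 10 nM it was 0, with the block too. A fit of 8 libraries without 20 nM replicate 3, with the surrogate variables estimated again, was chosen after seeing the data and called 1 at 10 nM, 14 at 20 nM, 7 between both amounts and 10 in the dose trend. Counting 8-mers alone, 3 Rabs had a seed match in place of 11. Over all genes, calls at 20 nM were 2074, and 954 with no surrogate variables, 4370 in the fit of 8 libraries, and 1074 to 2656 when 1 library was left out. The cause of these differences was not tested.

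For RAB10 at 10 nM the log2 fold change of 0.0071 changed sign to -0.003 with no surrogate variables, -0.0026 with the block, -0.0035 with only the 2 groups, -0.0134 in the fit of 8 libraries, and, when 1 library was left out, ranged from -0.026 to 0.0341, below 0 without Ctrl. replicate 1, 10 nM replicate 2 or 20 nM replicate 3. Across all single genes and alternatives, 1155 values kept direction and side of the threshold, 155 lost the threshold, 7 gained it and 7 changed sign. The block changed no call of a Rab other than those given beside RAB22A, RAB8B, RAB10, RAB31, RAB32 and RAB33A and the 3 between 20 nM and 10 nM. With 3 libraries a group, changes near the median standard error of 0.0809 could not be resolved. Some larger fitted changes, such as 0.27 for RAB31 at 20 nM, did not pass either.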
